A study of Mus musculus with 3 samples.

Results

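The response of old regenerating muscle to recombinant meteorin-like protein (rMETRNL) was examined by setting all cells of the old rMETRNL library against all cells of the old PBS library. A cell was taken where at least 500 genes were detected and under 10% of its unique molecular identifiers (UMIs) came from mitochondrially encoded genes. This gave 12786 cells in old rMETRNL and 11058 in old PBS, 23844 together, of the 38748 barcodes in the 3 libraries of the series. Both groups were mice of 24 to 26 months whose tibialis anterior muscle had been injured with barium chloride, which kills muscle fibres and spares their stem cells, and both were collected 4 days after injury. They differed in the agent injected into the muscle in 3 treatments after injury, phosphate-buffered saline (PBS) or rMETRNL. The 3rd library, young PBS, came from mice of 3 to 4 months given the same injury and PBS. Its levels are given for some genes only, for orientation, and were not on the old rMETRNL side of old PBS for all genes. Material from 3 samples a group had been pooled before sequencing, so that each group had 1 library. No test between groups was possible. Each interval given in parentheses is a 95% interval for counting error only, since UMIs count captured molecules, and a difference beyond it describes the 2 libraries, not the spread between mice. Where a pair of values stands without names, old PBS comes first.

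Meteorin-like is a secreted protein made by muscle and by immune and barrier tissues, and it is studied as a signal between macrophages and muscle repair. A muscle injured in this way is filled within days by macrophages that clear dead fibres and by fibro/adipogenic progenitors (FAPs), the Pdgfra-expressing stromal cells that lay down matrix. The smaller populations carry out other parts of the repair. Endothelial cells line and rebuild the capillaries, and mural cells (pericytes and vascular smooth muscle) wrap them. Muscle stem cells divide, commit as myoblasts and fuse into new fibres. Dendritic cells carry antigen to T cells, natural killer (NK) and T cells secrete cytokines, and tenocytes maintain the tendon that the dissected muscle brings along. The question was which of these cells differed, and in which genes, after the protein was given.

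The libraries were of like depth. The 11058 cells of old PBS held 175243805 UMIs and those of old rMETRNL 225651585, with medians of 13907.5 and 14688.5 UMIs per cell. The cell filter passed 87.99% of the old PBS barcodes and 91.3% of those of old rMETRNL. In the 50 genes just below its gene limit lay 170 and 119 barcodes, and in the 50 from the limit up 141 and 126. The libraries shared 76 barcodes. A further 1045 and 1342 cells were doublet calls, which stayed in sums over the whole library and were left out of the cell classes, leaving 10013 and 11444 cells there. Classes were named from fixed markers, so that each name below stands for cells that are like that type by their transcripts. In both libraries each of the 6 smaller classes held transcripts of all of its markers. In dendritic cells 12 of 15 markers were found in at least 10% of cells, and in the other 5 classes all of them or all but 1. Markers of another type were also widespread in some classes of both libraries. At least 10% of cells held 13 of 14 macrophage and monocyte markers in dendritic cells. The same held for 12 of 13 myocyte and fibre markers in muscle stem cells and myoblasts, and 11 of 12 FAP markers in tenocytes. In these classes the other type's markers summed higher than the class's own.

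Over the whole libraries, transcripts of mature muscle fibres were the group that stood lowest in old rMETRNL. UMIs were summed per library and scaled to counts per 1000000 UMIs (CPM), and the log2 ratio of CPM, old rMETRNL over old PBS, was taken with 0.5 added to each count. Of 15571 genes with at least 100 UMIs in both libraries together, 589 (3.78%) were at least 1.5-fold higher in old rMETRNL and 504 (3.24%) at least 1.5-fold lower. With the median log2 ratio of all genes, 0.06, set to 0 the split was 437 higher and 648 lower. In the list of mature fibre transcripts 16 of 20 were at least 1.5-fold lower, with a list median of -1.51. Sln, the sarcolipin that uncouples the calcium pump of muscle, was at 7.09 CPM in old PBS against 0.244 CPM in old rMETRNL, and at 0.773 CPM in young PBS. The fast myosin heavy chain Myh4 was at 52.4 and 12.8 CPM. The calcium buffer Pvalb was at 52.3 and 12.98 CPM. The carbonic anhydrase Car3 was at 34.6 and 7.49 CPM. Trim63, the ubiquitin ligase of muscle atrophy, was lower at a ratio of 0.169 (95% interval 0.144 to 0.198). The thin-filament cap Tmod4, the thick-filament protein Mybpc2, the titin cap Tcap and the Z-disc protein Myoz1 had log2 ratios of -2.21, -2.16, -1.91 and -1.86. Droplets of the fibre-like class held 88.2% of the Myh4 UMIs and 90.6% of the Sln UMIs, whose log2 ratio of -4.85 was -3.11 with each cell counted alike, and this class was smaller in old rMETRNL, as the shares show.

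The genes that stood highest in old rMETRNL lay mostly in single classes. Lyve1, a receptor of resident macrophages and lymphatic vessels, was at 4.08 CPM in old PBS against 15.7 CPM in old rMETRNL, and at 3.53 CPM in young PBS. Slfn4, a myeloid gene of the interferon response, was at 4.21 and 11.03 CPM. Endothelial cells held 97.01% of the UMIs of Chga (chromogranin A), at 0.902 and 3.88 CPM, 91.6% of those of Depp1, at 1.004 and 4.303 CPM, and 95.5% of those of Prnd, the prion-like protein doppel, at 3.22 and 8.22 CPM. Apln, the apelin peptide of sprouting vessels, had a ratio of 2.65 (95% interval 2.44 to 2.89). Gal (galanin) and Igfbp2 lay mostly in muscle stem cells and myoblasts, which held 90.6% and 82.3% of their UMIs, with ratios of 3.097 (2.98 to 3.21) and 3.13 (2.73 to 3.603). The mast cell protease Mcpt4 had a ratio of 2.92 (2.55 to 3.36), with 66.96% of its UMIs in the macrophage class. Its log2 ratio ran from 0.84 under the looser cell filter (200 genes, 20% mitochondrial UMIs) to 3.75 under the stricter one (1000 genes, 5%), beside 1.54 here, and Gal was at 2.37 under the stricter filter beside 1.63. Depp1 was at 1.05 in cells thinned to 2000 UMIs, beside 2.10. The whole-library level of each of these genes moves with the number of cells of its class as well as with the level per cell. From sums over the whole library alone the 2 cannot be told apart. The share of cells had a ratio of 0.978 for macrophages, 0.93 for endothelial cells and 1.82 for muscle stem cells and myoblasts. Sfrp5, a secreted Wnt antagonist, was at 4.61 and 1.21 CPM, and 70.01% of its UMIs lay in cells left without a class name.

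Among the gene lists, transcripts of T cells were the next lowest over the whole library, with 12 of 17 genes at least 1.5-fold lower and a median of -1.26. The major histocompatibility complex (MHC) class II list had a median of -0.39, with 7 of 9 genes below 0. Among the lists above 0 were cell cycle at 0.52 (24 of 26 genes above 0), interferon-stimulated genes at 0.49 (25 of 31), angiogenic tip cell genes at 0.37, heat shock at 0.36 and hypoxia and glycolysis at 0.34. Counting each cell alike left the tip cell list at 0.13, hypoxia and glycolysis at 0.12 and MHC class II at -0.18.

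Class shares differed beyond counting error for 4 of the 6 smaller classes under each cell filter and clustering tried, and for mural cells under all but 1. Muscle stem cells and myoblasts made up 2.11% (95% interval 1.83% to 2.41%) of classified cells in old PBS against 3.84% (3.49% to 4.204%) in old rMETRNL, a ratio of 1.82 (1.54 to 2.16). Under a stricter filter of 1000 genes and 5% mitochondrial UMIs the ratio was 3.11, where that filter left 47 of these cells in old PBS against 179 in old rMETRNL. Tenocytes were at 1.21% (1.004% to 1.44%) and 1.98% (1.74% to 2.26%), a ratio of 1.64 (1.31 to 2.06). Dendritic cells were at 3.56% (3.201% to 3.94%) and 5.66% (5.25% to 6.102%), a ratio of 1.59 (1.397 to 1.82), or 1.26 where cells were assigned by their marker transcripts with no clustering. Those 3 classes were larger in old rMETRNL.

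T and NK cells had the lowest ratio of the 6 classes, at 1.87% (95% interval 1.61% to 2.15%) in old PBS against 1.07% (0.894% to 1.28%) in old rMETRNL, a ratio of 0.576 (0.455 to 0.726). The cluster of T cells held 149 and 84 cells, a ratio of 0.493 (0.373 to 0.649), and the cluster of NK cells 38 and 39, a ratio of 0.898 (0.5595 to 1.44). Mural cells were at 1.05% (0.858% to 1.27%) and 0.751% (0.602% to 0.927%), a ratio of 0.717 (0.533 to 0.962). At a clustering resolution of 1.6 the mural ratio was 0.791 (0.615 to 1.02), an interval that held 1. Endothelial cells, at 9.13% (8.57% to 9.71%) and 8.48% (7.98% to 9.01%), had an interval of the ratio that held 1, at 0.9295 (0.848 to 1.02). Fibre-like droplets were at 4.39% (4.001% to 4.81%) and 1.14% (0.9499% to 1.35%). A share of 1 class moves the shares of all others, and how many cells the dissociation released from each muscle was not measured.

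**Figure D1:**
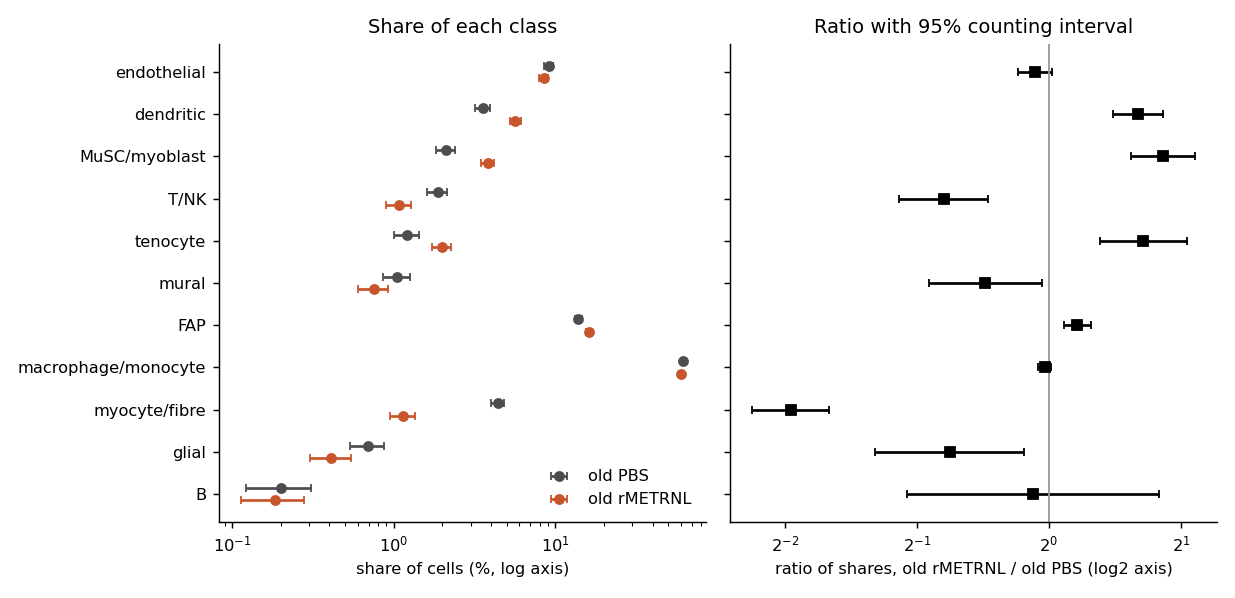
The left panel gives the share of each cell class among classified cells in percent on a log axis for the 2 libraries, and the right panel the ratio of the shares on a log2 axis, with exact 95% counting intervals as bars. Muscle stem cells, tenocytes and dendritic cells lie to the right of 1, T and NK cells, mural cells and fibre-like droplets to the left, and the interval of endothelial cells crosses 1.

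Within the classes, 1.6% to 6.12% of genes were past 1.5-fold in a direction, and these shares are the background for the gene lists. Set to a median log2 ratio of 0, the split of genes past the fold was 353 higher and 492 lower in endothelial cells and 444 and 378 in macrophages. With each cell counted alike it was 177 and 156 in T and NK cells, and 614 and 804 over the whole library. Of genes with at least 100 UMIs in the class, 458 of 9449 (4.85%) were higher in old rMETRNL in endothelial cells and 377 (3.99%) lower. In dendritic cells 249 of 7184 were higher (3.47%) and 257 lower (3.58%). In muscle stem cells and myoblasts the counts were 154 of 9650 (1.6%) and 238 (2.47%). T and NK cells had 100 of 3390 genes higher (2.95%) and 135 lower (3.98%), tenocytes 215 of 6321 (3.4%) and 241 (3.81%), and mural cells 107 of 1764 (6.07%) and 108 (6.12%). For orientation, FAPs had 3.77% higher and 2.95% lower, and macrophages 4.36% and 2.35%. Which direction held more genes depended on the setting in each of the 6 smaller classes. With doublet calls kept, 415 and 455 genes were higher and lower in endothelial cells and 273 and 188 in dendritic cells. Muscle stem cells and myoblasts had 280 and 191 under the stricter cell filter, tenocytes 352 and 299 with each cell counted alike, and mural cells 254 and 123 under the looser filter and 236 and 139 at a clustering resolution of 1.6. The median over all genes lay between 0.00 and 0.06 in these 8 classes.

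**Figure D2:**
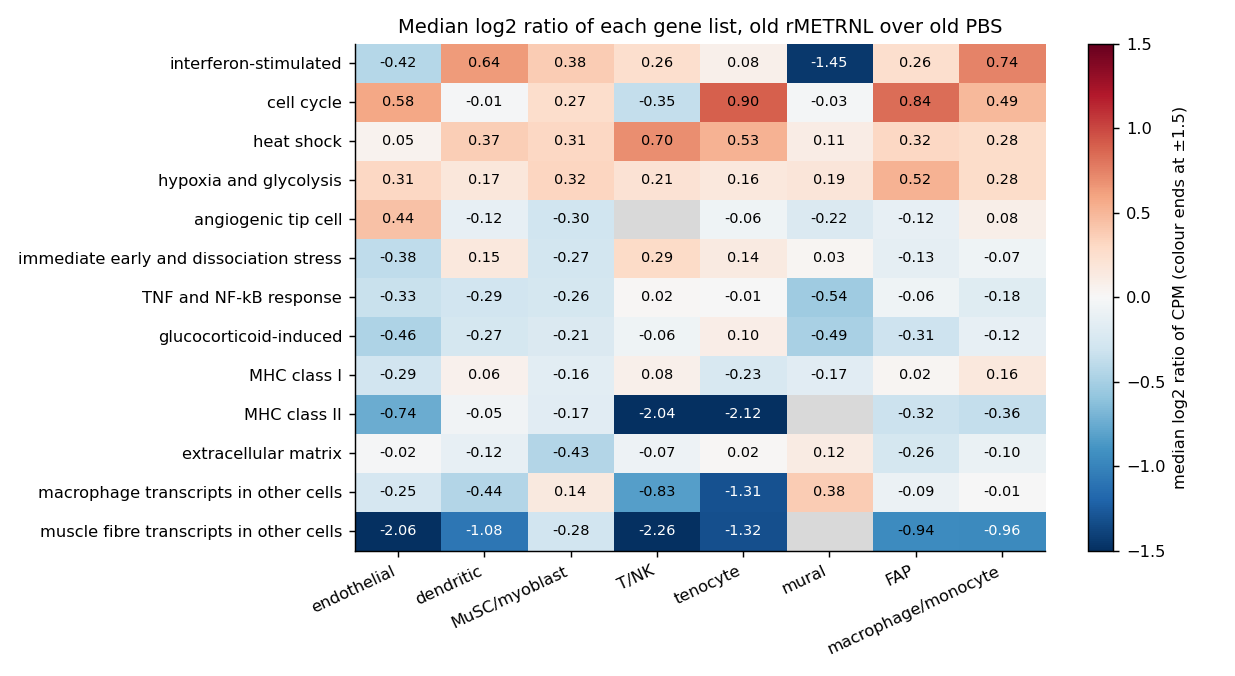
Each cell of the grid gives the median log2 ratio of CPM, old rMETRNL over old PBS, over the genes of 1 list (rows) in 1 cell class (columns), in red above 0 and blue below, and grey cells had under 4 genes with 100 UMIs. The interferon-stimulated row changes sign between classes, from -1.45 in mural cells to 0.74 in macrophages, and the row of muscle fibre transcripts is below 0 in each class with a value.

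Endothelial cells of old rMETRNL muscle as a class held more transcripts of growing vessels. Apln was at 45.8 CPM in old PBS against 126 CPM in old rMETRNL, a ratio of 2.76 (95% interval 2.43 to 3.13), and at 83.5 CPM in young PBS. Of the 19 tip cell genes with enough UMIs, 16 were above 0 and 6 at least 1.5-fold higher, with a median of 0.44. The placental growth factor Pgf was at 201 and 338 CPM. The vessel-destabilising ligand Angpt2 was at 51.4 and 82.7 CPM. The tip cell proteoglycan Esm1 was at 3.96 and 9.73 CPM. The apelin receptor Aplnr had a log2 ratio of 0.55 and the basement membrane collagens Col4a1 and Col4a2 of 0.44 and 0.41. Dll4, the Notch ligand of tip cells, went the other way at -0.28. Igfbp3, an insulin-like growth factor binding protein, was at 113 and 332 CPM. Igfbp3 was at 0.70 on the log2 scale where each cell was counted alike, beside 1.55. In a list of receptors, among them those for VEGF, angiopoietin, Notch and sphingosine phosphate but not Aplnr, 0 of 13 genes were at least 1.5-fold higher and 0 lower. The VEGF receptors Kdr and Flt1 had log2 ratios of -0.27 and -0.35.

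The makeup of the endothelial class differed between the libraries, and sums over the class move with it. At a clustering resolution of 1.6 the capillary cells fell into a cluster led by Aqp1, Timp4 and Flt1 and a cluster whose leading genes held Pgf and Prnd. The Aqp1 cluster held 515 of 882 cells in old PBS against 376 of 934 in old rMETRNL, and the Pgf cluster 197 and 349 cells. The Aqp1 cluster was the shallower, with medians of 2297 and 2116 UMIs per cell beside 9965 and 14690 in the Pgf cluster. Within these clusters the list medians were nearer 0 than over the class for tip cell and cell cycle genes. Tip cell genes were at 0.18 in the Aqp1 cluster and 0.14 in the Pgf cluster, and cell cycle genes at 0.01 and 0.14, with 5 and 26 genes measured. Capillary genes were at -0.03 and -0.35, and hypoxia and glycolysis genes at 0.17 and 0.44. The 2 smaller clusters, a venous one of 118 and 165 cells and one led by Cytl1 of 52 and 44 cells, had tip cell medians of 0.45 and 0.58. The values over the whole class that follow hold makeup and level per cell together.

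Cell cycle transcripts were higher with them. The list had 24 of 26 genes above 0, 13 of them at least 1.5-fold, and a median of 0.58 beside 0.06 for all genes. Plk1, the polo-like kinase of mitosis, had a ratio of 2.74 (95% interval 1.91 to 4.02), and a log2 ratio of 0.51, inside the 1.5-fold limit, in cells thinned to 2000 UMIs. The ubiquitin-conjugating enzyme Ube2c was at 38.2 CPM in old PBS against 92.1 CPM in old rMETRNL. The mitotic activator Cdc20 was at 15.98 and 32.1 CPM. The replication clamp Pcna was lower, at -0.46 on the log2 scale. After each cell was thinned to 2000 UMIs, the share of cells with at least 2 UMIs of the list was 76.6% in old PBS against 71.4% in old rMETRNL, while the mean per cell was 4.09 and 4.66 UMIs. No order was read from that share, which goes against the sums. Hypoxia and glycolysis genes had 20 of 23 above 0 and a median of 0.31. Among them Ankrd37, a target of hypoxia-inducible factor, was at 10.3 and 30.7 CPM. The oxygen sensor Egln3 was at 3.96 and 12.9 CPM. The lactate exporter Slc16a3 was at 13.2 and 23.1 CPM, whereas Vegfa was at 18.6 and 10.96 CPM. Thinning to 2000 UMIs brought Ankrd37 inside the limit, from 1.56 to 0.50 on the log2 scale.

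Chga, Depp1 and Akr1b8 were also high. Depp1, a gene switched on by FOXO factors, was at 18.1 CPM in old PBS against 71.5 CPM in old rMETRNL and at 145 CPM in young PBS, and Akr1b8, an aldo-keto reductase, at 16.7 and 59.6 CPM and 31.1 CPM in young PBS. Chga was at 20.2 and 68.04 CPM, with UMIs in 9 of 914 cells and 57 of 971. The largest ratio of the class, that of the lymphatic chemokine Ccl21a at 7.54 (95% interval 5.57 to 10.5), rested on 2 cells in old PBS against 5 in old rMETRNL, and 1 cell held 75.2% of the UMIs in old rMETRNL. With doublet calls kept its log2 ratio was 0.32, beside 2.90. Ccl21a was at 0.0979 CPM in young PBS, beside 6.85 and 51.6 CPM. Enzymes and regulators of sterol synthesis had 12 of 15 genes above 0 and a median of 0.36, which was -0.03 with each cell counted alike.

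Genes of capillary identity were lower over the class. Of the 15 capillary genes 12 were below 0, with a median of -0.43. Timp4, a metalloproteinase inhibitor, was at 96.2 CPM in old PBS against 37.2 CPM in old rMETRNL. The carbonic anhydrase Car4 was at 59.5 and 31.2 CPM. The water channel Aqp1 was at 2010.4 and 1243 CPM. The fatty acid transporter Cd36 was at 1122 and 738 CPM. Gpihbp1, which anchors lipoprotein lipase, barely differed at a log2 ratio of -0.04. Cytl1, a secreted cytokine-like protein, was at 107 and 23.2 CPM. The sulfotransferase Sult1a1 was at 86.6 and 37.1 CPM. The 4-1BB ligand Tnfsf9 was at 92.96 and 36.04 CPM, and the sialyltransferase St6galnac3 had a ratio of 0.438 (95% interval 0.349 to 0.547). The granulocyte growth factor Csf3 was at 308 and 135 CPM, a ratio of 0.4401 (0.412 to 0.4705), and in cells thinned to 2000 UMIs it was at -0.38 on the log2 scale. Sult1a1 and Csf3, where each cell was counted alike, were inside the 1.5-fold limit, at -0.56 and -0.33 on the log2 scale, and Timp4 and Cytl1 were at -0.62 and -1.43, beside -1.37 and -2.21. Venous genes had a median of -0.42, with Selp (P-selectin) at 1730.0 and 1030.0 CPM. Ackr1, the chemokine receptor of venules, was at 349 and 194 CPM. Vwf (von Willebrand factor) was at 302 and 178 CPM. That median was 0.05 when each cell counted alike, so its sign depends on how cells are weighted.

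Immediate early genes, which are switched on within minutes of a stimulus and also by tissue dissociation, were below 0 in 22 of 22 cases in endothelial cells, with a median of -0.38. Within the finer Aqp1 and Pgf clusters that median was -0.10 and -0.20. Egr1 was at 1251 CPM in old PBS against 769 CPM in old rMETRNL. Junb was at 2178 and 1550.4 CPM, and Arc had a ratio of 0.367 (95% interval 0.2996 to 0.448). Glucocorticoid-induced genes had 13 of 14 below 0 and a median of -0.46, among them the metallothionein Mt1 at 681 and 358 CPM. The list of responses to TNF and NF-kB had a median of -0.33, with Icam1 at 585 and 438 CPM. Il6 was at 435 and 302 CPM. MHC class I genes had a median of -0.29 and 13 of 16 below 0, and the MHC class II list one of -0.74. Counting each cell alike brought the TNF and NF-kB median to -0.08, that of MHC class I to -0.15 and that of the capillary list to -0.25. Ubd, a ubiquitin-like modifier induced by cytokines, had a ratio of 0.367 (0.296 to 0.455).

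Cell depth and foreign transcripts moved with these values. Endothelial cells had a median of 3976.5 UMIs in old PBS, 7239 in old rMETRNL and 11402 in young PBS. In cells thinned to 2000 UMIs, which left out 204 and 185 cells, the medians were 0.56 for the cell cycle, 0.43 for tip cell genes, -0.36 for capillary genes and -0.33 for immediate early genes. Muscle fibre transcripts, most of which endothelial cells do not make, had a median of -2.06, with Acta1 (skeletal actin) at 88.5 CPM in old PBS against 20.3 CPM in old rMETRNL. Macrophage transcripts summed to 5327 and 4841 CPM. Their part in the other differences was not tested. At the coarser clustering used for the classes, which kept the capillary cells in 1 cluster of 796 and 808 cells beside a venous cluster of 118 and 163, tip cell genes were at 0.40 in the capillary and 0.44 in the venous cluster, cell cycle genes at 0.58 and 0.07, and heat shock genes at -0.09 and 0.64.

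**Figure D3:**
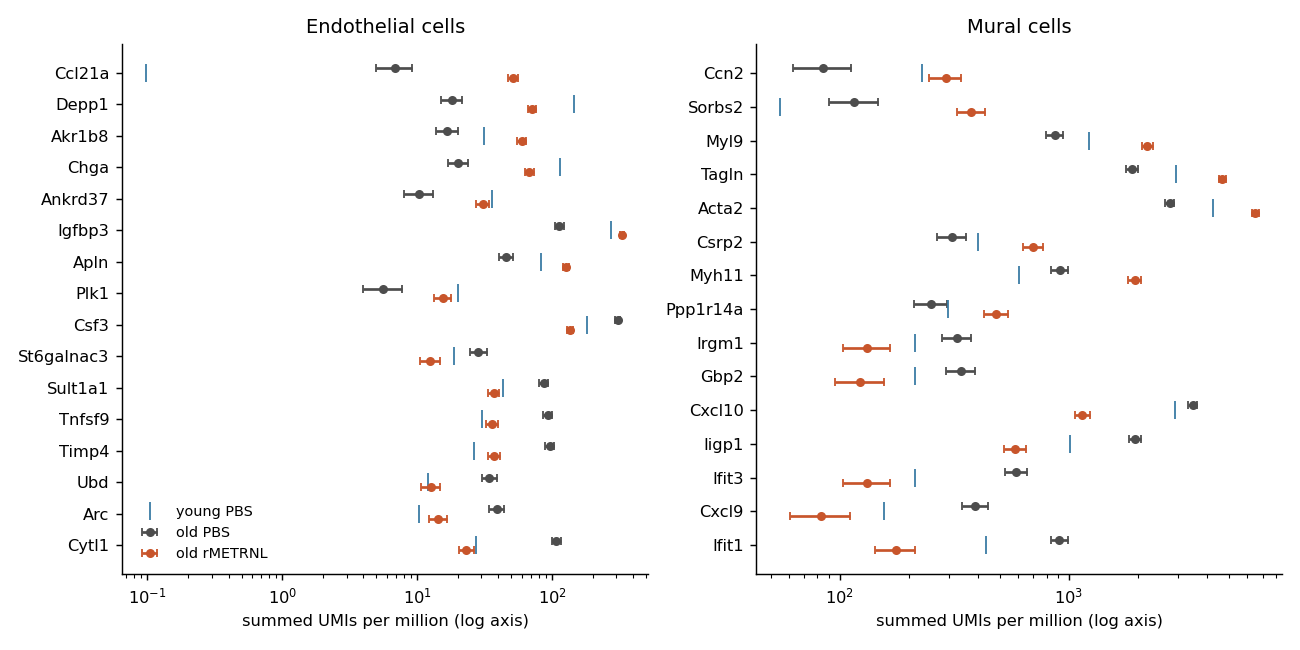
Levels of the genes named by size of difference in endothelial (left) and mural cells (right), in CPM of summed UMIs on a log axis with exact 95% Poisson intervals, for old PBS and old rMETRNL, and young PBS as a tick. The 8 genes at the top of each panel were higher in old rMETRNL and those below them lower. Apln, Igfbp3 and Depp1 stand among the higher endothelial genes, and Ifit1, Cxcl9 and Ifit3 are the lowest mural genes.

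Mural cells showed the lowest interferon-stimulated transcripts in old rMETRNL relative to old PBS. Of 17 such genes with enough UMIs, 13 were at least 1.5-fold lower, against 6.12% of all genes in the class, and the list median was -1.45. Ifit1, which binds viral RNA, was at 909 CPM in old PBS against 176 CPM in old rMETRNL, and at 436 CPM in young PBS. Its relative Ifit3 had a ratio of 0.224 (95% interval 0.172 to 0.289). The T cell chemoattractant Cxcl9 was at 392 and 83.4 CPM, and its relative Cxcl10 was at 3471 and 1147 CPM. The interferon-induced GTPases Iigp1, Gbp2 and Irgm1 had ratios of 0.301 (0.265 to 0.341), 0.364 (0.272 to 0.482) and 0.406 (0.305 to 0.534). Bst2 and Ifi27l2a, of the same list, were slightly above 0, at 0.12 and 0.15. The class is small, with 105 and 86 cells, and it depends on where its border is drawn. With 200 genes and 20% mitochondrial UMIs as the limits, 169 and 146 cells entered it and the list median was -0.02. At a clustering resolution of 1.6 it held 136 and 123 cells, and the median was -0.15. Cxcl9 was then at -0.02 and -0.09 on the log2 scale, and Gbp2 and Irgm1 also fell inside the 1.5-fold limit under both. Under the looser limits Iigp1 was at -0.64, Cxcl10 at -0.99, Ifit1 at -1.18 and Ifit3 at -1.29, beside -1.73, -1.60, -2.36 and -2.15.

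Contractile genes of smooth muscle were higher in mural cells. All 16 measured genes of this list were above 0 and 12 were at least 1.5-fold higher, with a median of 0.91 beside 0.04 for all genes. The smooth muscle actin Acta2 was at 2752 CPM in old PBS against 6507 CPM in old rMETRNL. The actin-binding Tagln was at 1881 and 4679 CPM. The light chain Myl9 was at 868 and 2198 CPM. The myosin heavy chain Myh11 was at 913 and 1935 CPM. Csrp2, a LIM protein of smooth muscle, and Ppp1r14a, an inhibitor of myosin phosphatase, had ratios of 2.26 (95% interval 1.89 to 2.71) and 1.93 (1.57 to 2.38). Sorbs2, an adaptor of the actin skeleton, had a ratio of 3.24 (2.45 to 4.34). Ccn2, the connective tissue growth factor, was at 84.5 and 289.9 CPM. Single cells weighed on these sums, since 1 cell held 41.9% of the Ccn2 UMIs and 23.8% of the Tagln UMIs in old rMETRNL. With each cell counted alike the list median was 0.61, and with the looser cell limits it was 0.30. Sorbs2 and Myh11 were inside the 1.5-fold limit under both the stricter and the looser limits, at 0.31 and 0.52 and at 0.50 and 0.35 on the log2 scale, and each of the other 6 genes named by size was inside it under at least 1 setting. Pericyte genes did not follow, at a median of -0.07. Macrophage transcripts in mural cells summed to 4541 and 7107 CPM, and 1 cell held 50.1% of them in old rMETRNL.

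Inflammatory genes of mural cells were lower beside the interferon list. The list of responses to TNF and NF-kB had 6 of 12 genes at least 1.5-fold lower and a median of -0.54. Ccl2, the chemokine that draws monocytes, was at 3128 CPM in old PBS against 1845 CPM in old rMETRNL. Il6, the cytokine of the acute response, was at 2053 and 1119.8 CPM, a ratio of 0.545 (95% interval 0.494 to 0.602). The neutrophil chemoattractant Cxcl1 had a log2 ratio of -0.46, and Nfkbia, the inhibitor that NF-kB induces, was above 0 at 0.35. Glucocorticoid-induced genes had 7 of 8 below 0 and a median of -0.49, with the metallothionein Mt1 at 6544 and 4369 CPM. Genes of the TGF-beta response were on the other side, with 4 of 11 at least 1.5-fold higher and a median of 0.32. Of these Ccn2, Acta2 and Tagln are given above. These medians were smaller under other settings, at -0.17 for TNF and NF-kB with each cell counted alike, -0.30 for glucocorticoid-induced genes under the looser cell filter and 0.11 for the TGF-beta response at a clustering resolution of 1.6.

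The interferon-stimulated list had opposite signs across the classes. Interferons bind receptors that switch on transcription factors, which bind the interferon-stimulated response element in target promoters. In macrophages the list median was 0.74 with 22 of 31 genes at least 1.5-fold higher, in dendritic cells 0.64 with 20 of 31, in muscle stem cells 0.38 with 6 of 21, in FAPs 0.26 with 5 of 31, in T and NK cells 0.26 with 3 of 21, and in tenocytes 0.08 with 4 of 24. In endothelial cells it was -0.42, with 0 genes at least 1.5-fold higher and 9 of 28 at least 1.5-fold lower, and in mural cells -1.45. The makeup of the macrophage class differed as well. A cluster led by Ifit2 held 126 of 6174 macrophages in old PBS against 368 of 6900 in old rMETRNL. In muscle stem cells 2 of the 21 genes were at least 1.5-fold lower, and the list was sparse there, at 446 and 525 CPM. Whether classes differ from each other beyond the spread between mice could not be tested with 1 library a group.

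Ifit1 differed in direction between classes. It was at 910.4 CPM in old PBS against 451 CPM in old rMETRNL in endothelial cells, a ratio of 0.496 (95% interval 0.478 to 0.515), but at 29.1 and 66.9 CPM in macrophages, a ratio of 2.298 (2.202 to 2.399). In FAPs and tenocytes, whose list medians were above 0, Ifit1 itself was lower, at ratios of 0.686 (0.666 to 0.707) and 0.815 (0.714 to 0.931). Isg15, the ubiquitin-like protein of the response, was at 497 and 362 CPM in endothelial cells and at 145 and 279.7 CPM in dendritic cells. Endothelial Cxcl9 was at 1200.3 and 641 CPM, and endothelial Cxcl10 was at 2434 and 1414 CPM. Irf7, the factor that amplifies the response, was level in endothelial cells at 0.03 and higher in dendritic cells at 0.77. The endothelial list median was -0.55 in the capillary cluster and 0.00 in the venous one. At the finer clustering it was -0.11 in the Aqp1 cluster, -0.52 in the Pgf cluster and -0.81 in the Cytl1 cluster. Over the class it was -0.19 with each cell counted alike and -0.24 with doublet calls kept, beside -0.42. The FAP median was 0.11 in cells thinned to 2000 UMIs, beside 0.26. After thinning to 2000 UMIs, the median endothelial cell held 27 UMIs of the list in old PBS against 19 in old rMETRNL, the median mural cell 8 and 5, the median dendritic cell 4 and 8, and the median macrophage 5 and 10. In mural cells the upper quartile was 39 in old PBS against 12 in old rMETRNL.

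**Figure D4:**
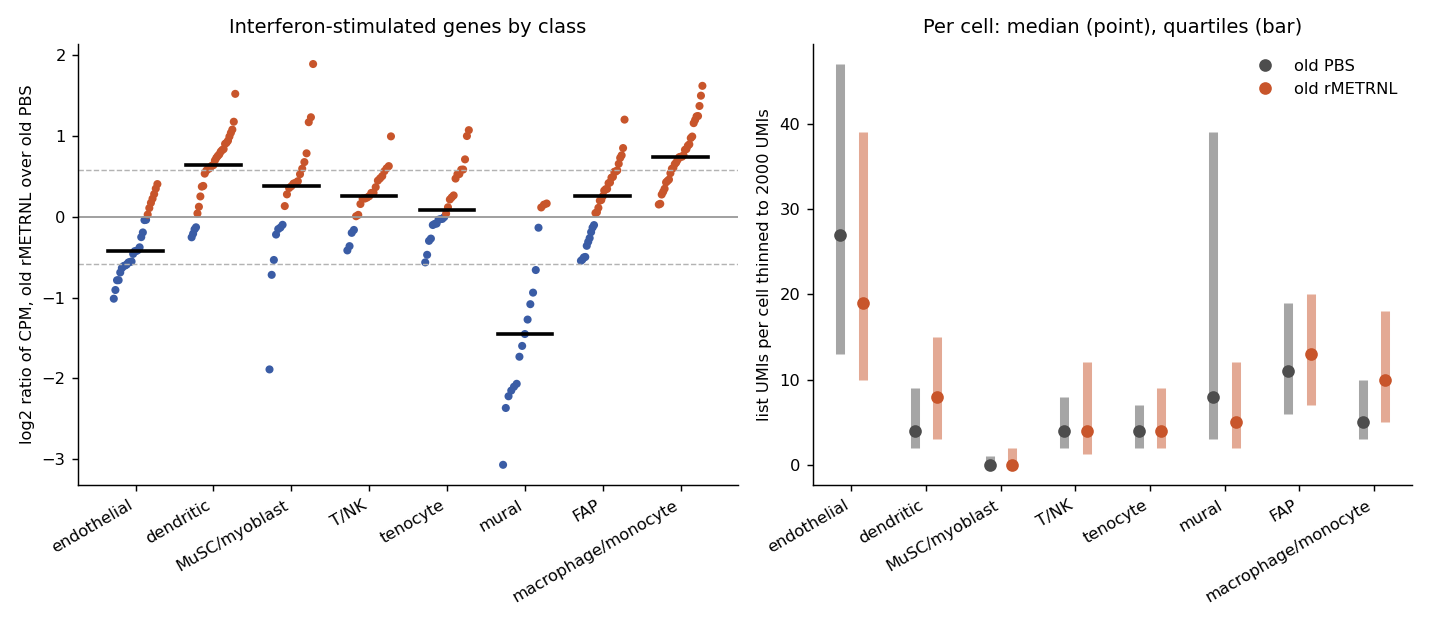
The left panel gives the log2 ratio of CPM, old rMETRNL over old PBS, for each interferon-stimulated gene (points) in each class, with the list median as a black bar and the 1.5-fold limits dashed. The right panel gives the UMIs of the list per cell after thinning to 2000 UMIs, as median (point) and quartiles (bar). Macrophage and dendritic points lie mostly above 0, endothelial and mural points mostly below, and the per-cell medians move the same way.

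The promoters of Ifit1, Ifit3, Cxcl10 and Isg15, picked from the list, are shown because they hold a match. They are the 250 bases before the RefSeq start of each gene, build GRCm38.p6, read 5′ to 3′ on the gene's strand, and the capitals mark each match to GAAANNGAAA, the core of the interferon-stimulated response element, on either strand. NN stands for any 2 bases. Ifit1 is at chr19:34640639-34640888 on the plus strand, Ifit3 at chr19:34583279-34583528 on the plus strand, Cxcl10 at chr5:92348890-92349139 on the minus strand and Isg15 at chr4:156200819-156201068 on the minus strand.
Ifit1: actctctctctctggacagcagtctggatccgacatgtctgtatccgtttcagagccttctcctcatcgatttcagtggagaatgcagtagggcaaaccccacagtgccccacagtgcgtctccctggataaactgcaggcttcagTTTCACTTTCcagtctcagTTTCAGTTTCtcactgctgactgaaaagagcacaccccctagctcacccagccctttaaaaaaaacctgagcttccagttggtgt
Ifit3: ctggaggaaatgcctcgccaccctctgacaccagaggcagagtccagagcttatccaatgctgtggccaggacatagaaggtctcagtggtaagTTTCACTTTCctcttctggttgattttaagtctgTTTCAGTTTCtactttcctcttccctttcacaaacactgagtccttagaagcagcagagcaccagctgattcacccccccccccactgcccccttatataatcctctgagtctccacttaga
Cxcl10: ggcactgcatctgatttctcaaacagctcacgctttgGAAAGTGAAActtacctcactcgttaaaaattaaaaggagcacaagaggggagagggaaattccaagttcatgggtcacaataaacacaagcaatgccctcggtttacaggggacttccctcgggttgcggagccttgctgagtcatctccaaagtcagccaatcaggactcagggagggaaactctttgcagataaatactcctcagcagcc
Isg15: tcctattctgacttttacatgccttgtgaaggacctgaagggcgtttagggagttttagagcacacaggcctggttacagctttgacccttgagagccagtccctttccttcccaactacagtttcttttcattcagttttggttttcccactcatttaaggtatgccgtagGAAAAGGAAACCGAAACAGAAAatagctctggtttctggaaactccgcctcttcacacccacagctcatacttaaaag
Ifit1 and Ifit3 hold 2 matches each, Cxcl10 holds 1, and Isg15 holds 3 that overlap. Of the 23 list genes with a promoter in the table, 15 held a match, as did 3.46% of all genes. Cxcl9, Slfn1 and Irf7 were among the list genes that held none. A match is a run of letters, not evidence of binding in these cells.

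The 8 genes named by size as higher in dendritic cells held Zbp1 and Slfn1 of the interferon-stimulated list. Zbp1, a sensor of double-stranded nucleic acid, was at 71.6 CPM in old PBS against 147 CPM in old rMETRNL, a ratio of 2.06 (95% interval 1.82 to 2.34). The endosomal RNA receptor Tlr3 was at 13.02 and 28.9 CPM. The p200-family gene Ifi213 was at 15.3 and 36.6 CPM. Phf11d, Slfn1, the ribonuclease Rnase6 and the nuclear body protein Pml had ratios of 2.203 (1.87 to 2.61), 2.12 (1.68 to 2.701), 2.17 (1.92 to 2.46) and 2.02 (1.57 to 2.63). Smim5, a small membrane protein, was at 9.65 and 23.02 CPM. The young PBS level of Zbp1 was 139 CPM, and that of Rnase6 170.1 CPM beside 74.9 and 163 CPM. The interferon list was above 0 in both large dendritic clusters, at 0.66 in the Cd209a cluster of 287 and 555 cells and 0.71 in the mature cluster of 54 and 71 cells. Beside Cd209a and Flt3, the leading genes of the former held the receptors Klrd1, Klrb1b and Klrk1, which NK cells also carry. Macrophage and monocyte markers summed to 3084 and 2481 CPM in dendritic cells, above the class's own markers at 2265 and 1598 CPM.

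Maturation genes were lower in the class. The mature dendritic list had 19 of 20 genes below 0, 11 of them at least 1.5-fold, and a median of -0.62. The T cell chemokine Ccl17 was at 40.2 CPM in old PBS against 5.02 CPM in old rMETRNL, and Ccl22, which binds the same receptor, was at 211 and 84.5 CPM. Il12b, the interleukin 12 subunit that drives T helper 1 cells, was at 172 and 59.3 CPM. The migration receptor Ccr7 was at 819 and 467 CPM. The apolipoprotein Apol7c was at 107 and 14.9 CPM. The interleukin 1 receptor antagonist Il1rn had a ratio of 0.475 (95% interval 0.427 to 0.528), the cystine transporter Slc7a11 0.242 (0.188 to 0.309), and the transcription factors Prdm1 and Ehf 0.439 (0.347 to 0.554) and 0.449 (0.363 to 0.554). Cd83 and Cd86, also on the list, were level at 0.00 and 0.03. The makeup of the class differed between the libraries as well. Within the mature cluster the list median was -0.05, within the Cd209a cluster it was -0.40, and the mature cluster was 54 of 356 cells in old PBS against 71 of 648 in old rMETRNL. With doublet calls kept Ccl17 was at -1.75 on the log2 scale, beside -2.98. Ccl17 UMIs were in 27 and 20 cells, and 1 cell held 32.96% of those in old PBS. Macrophage transcripts were lower beside them, at a list median of -0.44, for example Apoe at 2012 and 773 CPM, and that median turned to 0.07 with doublet calls kept. Haemoglobin transcripts of red cells were higher, with Hbb-bs at 23.8 and 481 CPM, and 1 cell held 71.4% of that list in old rMETRNL. The part of either in the other differences was not tested.

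Muscle stem cells and myoblasts as a class held fewer transcripts of differentiation and matrix, and more of heat shock and low oxygen. The leading genes of the class held Ttn, Myog and Myh3 of differentiating cells. Myocyte and fibre markers summed to 4328 and 3277 CPM in it, above the class's own markers at 2182 and 2042 CPM. Of 26 differentiation and fusion genes 22 were below 0 and 7 at least 1.5-fold lower, with a median of -0.28. Myog, the factor that starts terminal differentiation, was at 549.5 CPM in old PBS against 399 CPM in old rMETRNL. The embryonic myosin Myh3 was at 382 and 201 CPM. Actc1, the cardiac actin of young fibres, was at 333 and 127 CPM. The cell cycle inhibitor Cdkn1c was at 709 and 418 CPM. The fusion proteins Mymk and Mymx were nearer 0, at -0.20 and -0.19. The perinatal myosin Myh8, with the lowest ratio of the class at 0.213 (95% interval 0.172 to 0.263), was seen in 6 cells of each library, and its log2 ratio of -2.23 was -1.20 at a clustering resolution of 1.6. The calcium store protein Casq2 had a ratio of 0.539 (0.437 to 0.665). Under the stricter cell filter, which left 47 and 179 cells, the direction turned. The list median there was 0.39 and the log2 ratios of Myh3 and Casq2 were 0.60 and 1.87. At a clustering resolution of 1.6 the list median was 0.05 and Actc1 was at -0.10. At that resolution a cluster of 25 and 50 cells led by Myh3, Actc1 and Myog was named with the myocytes and fibres instead.

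The matrix list had 28 of 33 genes below 0 and 11 at least 1.5-fold lower in these cells, with a median of -0.43. Timp3, a tissue inhibitor of metalloproteinases, was at 277 CPM in old PBS against 114 CPM in old rMETRNL. The matricellular protein Postn was at 68.7 and 35.3 CPM. Col1a1 was at 109 and 48.3 CPM. Transcripts that mark FAPs were lower by the same measure, at a list median of -0.45, and 1 cell held 11.9% of them in old PBS. Most genes of the FAP list are also on the matrix list, so that these medians are not separate results. With each cell counted alike the matrix median was -0.07 and that of FAP transcripts -0.07, and under the stricter cell filter both turned, to 0.15 and 0.14. Of the genes named by size, Cited1, a transcriptional coregulator, was at 27.6 and 13.95 CPM, and the less well known Abhd13 and Spata7 had ratios of 0.497 (95% interval 0.377 to 0.657) and 0.52998 (0.408 to 0.6895). For Spata7 1 cell held 40% of the old PBS UMIs, and its log2 ratio was -0.38 without the cell richest in it and 0.44 under the stricter filter. Abhd13 was inside the 1.5-fold limit with each cell counted alike, at -0.51, and Cited1 was at -1.91 after thinning, beside -0.98.

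Higher genes in muscle stem cells and myoblasts included targets of hypoxia-inducible factor. Slc16a3, the lactate exporter, was at 4.47 CPM in old PBS against 14.6 CPM in old rMETRNL, and at 25.98 CPM in young PBS. Vegfa, the vessel growth factor, was at 16.6 and 33.6 CPM. Egln3 was at 17.9 and 34.8 CPM, and the hypoxia and glycolysis list had 19 of 21 genes above 0 and a median of 0.32. Cell cycle genes had 24 of 26 above 0, none past the fold, and a median of 0.27. The hypoxia median was 0.10 in cells thinned to 2000 UMIs and the cell cycle median 0.09 under the stricter cell filter. The chaperone Hsph1 was at 196 and 377 CPM, a ratio of 1.93 (95% interval 1.81 to 2.05). The neuronal tubulin Tubb3 and the membrane protein Dynap had ratios of 2.39 (1.84 to 3.14) and 2.55 (1.97 to 3.35). The olfactory receptor Olfr655 had the largest ratio, 15.2 (7.29 to 38.3), with UMIs in 7 and 22 cells and 36.6% of those in old rMETRNL in 1 cell. Olfr655 was at 1.08 and 16.4 CPM, and at 1.14 CPM in young PBS. Egln3 was inside the 1.5-fold limit after thinning, at 0.43 on the log2 scale. Olfr655 was at 1.52 with doublet calls kept, beside 3.83, and Slc16a3 at 3.03 under the stricter cell filter, beside 1.69. Without the cell richest in it Nol4l was at 0.52. For Nol4l 1 cell held 57.4% of the UMIs in old rMETRNL. Nol4l was at 6.47 and 17.3 CPM, and at 6.38 CPM in young PBS.

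Slc16a3 was the hypoxia gene with the largest ratio in this class, and its promoter at chr11:120948817-120949066 on the plus strand is shown with each match to ACGTGC, the core that hypoxia-inducible factors bind, in capitals.
Slc16a3: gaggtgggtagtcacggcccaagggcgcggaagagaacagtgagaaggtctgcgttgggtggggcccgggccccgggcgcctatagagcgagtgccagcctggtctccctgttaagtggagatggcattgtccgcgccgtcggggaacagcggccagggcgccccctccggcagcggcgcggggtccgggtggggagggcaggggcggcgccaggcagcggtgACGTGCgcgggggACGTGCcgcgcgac
It holds 2 matches. Of 23 genes of the hypoxia and glycolysis list with a promoter, 9 held a match on either strand, as did 5.63% of all genes. Vegfa and Egln3, given above as higher in this class, were among those that held none.

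T and NK cells of old rMETRNL muscle held more transcripts of some cytotoxic genes and of heat shock genes, and fewer CD8 transcripts. Gzmb, the granzyme that kills target cells, was at 494 CPM in old PBS against 1158 CPM in old rMETRNL, a ratio of 2.34 (95% interval 2.13 to 2.57), and at 995 CPM in young PBS. The NK receptor Klra7 had a ratio of 4.27 (3.15 to 5.84) and the chemokine Ccl4 2.44 (1.95 to 3.07). The list of NK and cytotoxic genes had 6 of 17 at least 1.5-fold higher and a median of 0.28, with Prf1 (perforin) at 97.8 and 164 CPM. Ifng (interferon gamma) was at 97.2 and 164 CPM. Ccl5 was at 3423 and 2367 CPM. Cd8a, a chain of the CD8 coreceptor, was at 139 and 74.2 CPM, and its partner Cd8b1 was at 315 and 167 CPM. The class was 38 NK-cluster cells of 187 in old PBS against 39 of 123 in old rMETRNL, and the values above move with that makeup. After thinning, the cytotoxic median over the class was 0.16. Within the T cell cluster the T cell list was level at 0.00 and the cytotoxic list at 0.10. Within the NK cell cluster the cytotoxic list was at 0.14. The summed level of that list was lower within both, at 6471 and 6291 CPM in the T cell cluster and 12696.5 and 11574 CPM in the NK cell cluster.

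Within the T cell cluster the interferon list was higher at 0.53 and genes of regulatory T cells, which restrain inflammation and aid muscle repair, had a median of 0.92, with 5 of 8 at least 1.5-fold higher and 1 lower, against 4.51% and 5.52% of the 2264 genes with enough UMIs in that cluster. Over the whole class the regulatory T cell median was 0.27. Foxp3, the factor that defines these cells, had 29 and 20 UMIs in the class and was not among them. Over the class, Ikzf2 (Helios) was at 143 CPM in old PBS against 274 CPM in old rMETRNL, a ratio of 1.92 (95% interval 1.59 to 2.31), and the checkpoint receptor Ctla4 at 60.8 and 115 CPM. In cells thinned to 2000 UMIs Ikzf2 was inside the 1.5-fold limit, at 0.29 on the log2 scale. Cell cycle genes had 16 of 19 below 0 and a median of -0.35, and 0.00 with each cell counted alike. The nucleolar protein Gnl3 was higher at 1.701 (1.31 to 2.205). Lower genes also included the linker histone Hist1h1e at 256 and 129 CPM. The potassium channel Kcnn4 was at 106 and 59.2 CPM. The kinase Prkch was at 111 and 64.95 CPM. The coat protein Copb1 was at 115 and 69.6 CPM. Ninj1 was at 96.6 and 56.8 CPM. After thinning Ninj1 turned to 0.10 on the log2 scale, and Hist1h1e and Prkch were inside the limit at -0.50 and -0.52. Gzmc was at 134 and 26.7 CPM, with 82.7% of its old PBS UMIs in 1 cell and a log2 ratio of -0.35 without the richest cells. Copb1 was inside the limit with each cell counted alike, at -0.54. Macrophage transcripts in this class summed to 9573 and 6279.6 CPM, and MHC class II transcripts to 1242 and 299 CPM, where 1 cell held 51.5% in old PBS. With doublet calls kept the macrophage list had a median of 0.11, beside -0.83. Their part in the differences was not tested.

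Tenocytes held more cell cycle and heat shock transcripts. All 24 measured cell cycle genes were above 0 and 19 at least 1.5-fold higher, with a median of 0.90. The mitotic kinase Cdk1 was at 12.3 CPM in old PBS against 47.1 CPM in old rMETRNL, a ratio of 3.82 (95% interval 2.55 to 5.94). The clamp-associated factor Pclaf was at 18.7 and 64.6 CPM. The thymidylate synthase Tyms was at 15.97 and 41.9 CPM. Ube2c was at 23.7 and 63.5 CPM. Few cells carried them, since Cdk1 UMIs were in 5 of 121 cells and 28 of 227. The list median was -0.38 under the stricter cell filter and 0.20 under the looser one, so its sign and size depended on the cell filter. Under the stricter filter Pclaf was at 0.21, Ube2c at -0.03 and Tyms at 0.49 on the log2 scale. The heat shock list stayed above 0 under both, with 15 of 15 genes above 0 and a median of 0.53. Hspa1a, the inducible chaperone HSP70, was at 283 and 1034 CPM, a ratio of 3.66 (3.36 to 3.98).

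Clec3b (tetranectin) and Crabp1, a retinoic acid binding protein, were higher in tenocytes, at ratios of 2.67 (95% interval 2.17 to 3.32) and 2.85 (2.01 to 4.14). Crabp1 was below 0 with doublet calls kept, at -0.15, and under the stricter cell filter, at -0.15. Mest, an imprinted gene of growing mesenchyme, was at 345 CPM in old PBS against 116 CPM in old rMETRNL. The cannabinoid receptor Cnr1 was at 67.1 and 28.8 CPM, and Txnip, which restrains thioredoxin and glucose uptake, at 306 and 154 CPM. Rasl11b, Enc1, Ccnb1ip1, Lhfpl2 and Rap2a were also among the 8 lowest, with log2 ratios from -1.32 to -0.89. The differences of Cnr1 and Rap2a were lost in cells thinned to 2000 UMIs, at -0.01 and -0.04 on the log2 scale, and 1 cell held 30.6% of the Cnr1 UMIs in old PBS. Mest was at -0.59 after thinning, beside -1.57. With each cell counted alike Enc1 was inside the limit, at -0.51, and Clec3b was at 0.78, beside 1.41. The tendon list itself was level, at a median of -0.04. Macrophage transcripts in tenocytes were lower, summing to 11352 and 6064 CPM, with 15 of 19 genes at least 1.5-fold lower and a median of -1.31, which was -0.29 with each cell counted alike, and MHC class II transcripts were at 1557 and 372 CPM. FAP markers summed to 36324 and 40618 CPM, above the class's own markers at 21571 and 19947 CPM.

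Cdk1 led the tenocyte list, and its promoter at chr10:69352913-69353162 on the minus strand is shown with each CCAAT box, a common element of cell cycle promoters, in capitals on either strand.
Cdk1: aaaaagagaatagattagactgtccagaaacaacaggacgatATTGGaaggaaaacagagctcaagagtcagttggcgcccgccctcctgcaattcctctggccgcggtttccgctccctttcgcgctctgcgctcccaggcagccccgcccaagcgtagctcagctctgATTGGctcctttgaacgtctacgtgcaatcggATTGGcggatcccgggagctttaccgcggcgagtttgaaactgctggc
It holds 3 matches. Of 21 cell cycle genes with a promoter 18 held the 5 letters, as did 37.5% of all genes.

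**Figure D5:**
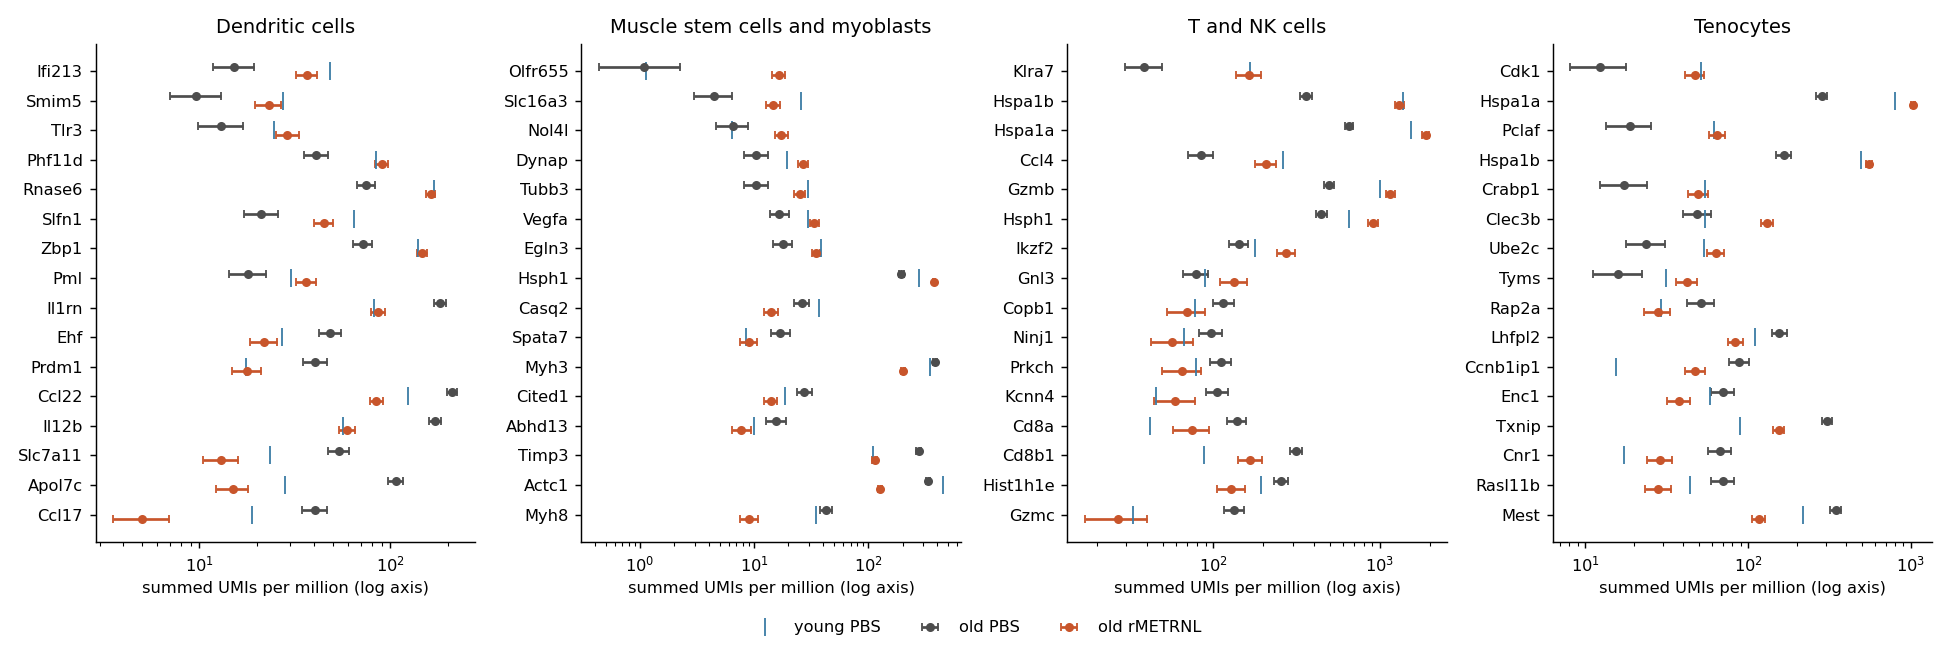
Levels of the genes named by size of difference in 4 further classes, in CPM of summed UMIs on a log axis with exact 95% Poisson intervals, for old PBS and old rMETRNL, and young PBS as a tick. In each panel the 8 genes at the top were higher in old rMETRNL and the 8 below them lower, with Hspa1a and Hspa1b among the higher genes of T and NK cells and of tenocytes.

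Heat shock genes, whose chaperones refold proteins and which also respond to the handling of tissue, had a median above that of all genes in 7 of the 8 classes. It was 0.70 in T and NK cells, 0.53 in tenocytes, 0.37 in dendritic cells, 0.31 in muscle stem cells, 0.32 in FAPs, 0.28 in macrophages and 0.11 in mural cells, and in endothelial cells it was 0.05 beside 0.06 for all genes. Hspa1a was at 1334 CPM in old PBS against 2651 CPM in old rMETRNL in dendritic cells, at 377 and 726 CPM in muscle stem cells and myoblasts and at 653 and 1886 CPM in T and NK cells. Its twin Hspa1b, whose reads can be assigned to either copy, was at 359 and 1308 CPM in T and NK cells and had a ratio of 3.35 (95% interval 2.996 to 3.75) in tenocytes. Hsph1 was at 446 and 911 CPM in T and NK cells. With doublet calls kept Hspa1a and Hspa1b of T and NK cells had log2 ratios of 0.74 and 0.95, beside 1.53 and 1.86. The immediate early list had both signs, at -0.38 in endothelial cells, -0.27 in muscle stem cells (0.03 with each cell counted alike), 0.15 in dendritic cells and 0.29 in T and NK cells, the class with the highest heat shock median. In the T cell cluster the immediate early list was at 0.43, with summed levels of 3901 and 5299 CPM, and its part in the other differences of that class was not tested. The heat shock median of T and NK cells was 0.45 with doublet calls kept, and the cell cycle median of FAPs 0.49. The cell cycle list was at 0.84 in FAPs, 0.49 in macrophages and -0.01 in dendritic cells. A cycling cluster led by Cenpf held 49 of 1391 FAPs in old PBS against 155 of 1844 in old rMETRNL. One led by Nusap1 and Top2a held 336 of 6174 and 522 of 6900 macrophages.

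The transcript of the protein that was given, Metrnl, was within 1.5-fold between the libraries in all 8 classes. It was at 162 CPM in old PBS against 156 CPM in old rMETRNL over all cells, at 104 and 112 CPM in tenocytes, and at 208 and 217 CPM in macrophages, the highest of the 8 classes in both. The ratio farthest from 1 was that of mural cells, at 143 and 96.03 CPM and 0.671 (95% interval 0.466 to 0.958).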

How the data were processed

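Single-cell RNA was measured in 3 libraries of injured mouse tibialis anterior muscle. Raw UMI counts of each gene in each barcode were deposited, which the authors made with Cell Ranger against build mm10. The submitters' processing notes name versions 5.0.0 and 3.1.0, the paper's methods name another, and which applies was not settled here. The annotation release is not given in the sources used here. The 32285 features were joined by symbol where 40 symbols repeated. Barcodes with at least 500 genes and under 10% UMIs in mitochondrially encoded genes were kept. Each library was scored for doublets by Scrublet (scanpy 1.11.5). Since the caller's own threshold marked at most 2 cells a library, the highest scores were called at 0.8% per 1000 barcodes. Counts of the remaining cells of the 3 libraries were scaled to 10000 per cell and logged, and 2000 variable genes, 30 principal components and 20 neighbours were clustered with Leiden at resolution 0.8, without integration since library and group are the same. The 25 clusters were named from 14 fixed marker lists.

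UMIs were summed per library or class and scaled to CPM, with exact Poisson intervals for levels, exact Clopper-Pearson intervals for shares and exact conditional binomial intervals for ratios (Python 3.11.15, numpy 2.4.6, scipy 1.17.1, pandas 2.3.3, leidenalg 0.10.2), tested on simulated data. Log2 ratios had 0.5 added to each count. Genes needed 100 UMIs in both libraries together, and 1.5-fold was the size counted. No p-value was computed, since a group had 1 library. Genes were named by size, 10 each way over the whole library (at least 1000 UMIs) and 8 each way in a class (at least 200 UMIs, and in that class at least 20% of the highest level of any class), and otherwise by list. Numbered gene models and mitochondrially encoded genes were left out of that ranking. A few genes that these rules name are not reported here. Members, lists and classes were chosen with earlier results of these data known. Settings were varied one at a time in the cell filter, doublet calls, clustering resolution, marker gating, cell weighting, centring, thinning to 2000 UMIs and UMI minimum. Promoters are RefSeq's, GRCm38.p6.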

Additional observations from a re-analysis of the deposited data

Results flagged for a closer look

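The interferon-stimulated list stood out because its median log2 ratio of CPM, old rMETRNL over old PBS, had opposite signs between cell classes under the same contrast. It was 0.64 in dendritic cells and 0.74 in macrophages, and -0.42 in endothelial cells and -1.45 in mural cells. The cell cycle list did so too, at 0.90 in tenocytes and 0.58 in endothelial cells against -0.35 in T and NK cells. The difference between classes was not tested in either case, since each group had 1 library, and it can only be described for these libraries. The mural value for interferon and the tenocyte value for the cell cycle are also the ones that depended most on which cells were let into the class.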

How the results depend on the processing

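Over the 65 list medians and all settings tried, 648 values were within 0.2 of the main one, 79 farther off and 13 of the other sign. The share ratio was 1.26 for dendritic cells under marker gating and 3.11 for muscle stem cells under the stricter cell filter (1000 genes, 5% mitochondrial). The number of genes past 1.5-fold depends on the UMIs behind it. It was 1093 over the whole library, 835 in endothelial cells, 506 in dendritic cells, 392 in muscle stem cells, 235 in T and NK cells, 456 in tenocytes and 215 in mural cells. After thinning to 2000 UMIs it was 621 over the whole library, 292 in endothelial cells, 208 in dendritic cells, 70 in muscle stem cells, 66 in T and NK cells, 59 in tenocytes and 51 in mural cells. With a minimum of 20 UMIs it was 2200 over the whole library, 1929 in endothelial cells, 1483 in dendritic cells, 1344 in muscle stem cells, 1500 in T and NK cells, 1802 in tenocytes and 1580 in mural cells, and with 400 UMIs 634 over the whole library, 299 in endothelial cells, 167 in dendritic cells, 92 in muscle stem cells, 27 in T and NK cells, 80 in tenocytes and 41 in mural cells. Counting each cell alike gave 829 in muscle stem cells. In mural cells it was 105 under the stricter filter, 377 under the looser (200 genes, 20%), 434 with doublet calls kept and 375 at resolution 1.6.

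Signs changed as follows. With each cell counted alike the endothelial sterol list was -0.030 and the immediate early list of muscle stem cells 0.033 (0.15 under the stricter filter). The venous list was 0.047 with each cell counted alike and 0.077 after thinning. With doublet calls kept, macrophage transcripts were 0.075 in dendritic and 0.11 in T and NK cells, and tenocyte Crabp1 was -0.15. Without the cell richest in them, macrophage transcripts were -0.036 in mural cells. Under the stricter filter muscle stem cells had 0.15 for matrix, 0.39 for differentiation (0.049 at resolution 1.6), 0.14 for FAP transcripts, 0.60 for Myh3, 0.44 for Spata7 and 1.87 for Casq2, with 47 and 179 cells left. Tenocytes had -0.38 for the cell cycle, -0.15 for Crabp1 and -0.029 for Ube2c. Ninj1 of T and NK cells was 0.10 after thinning. The cause was not tested. Leaving out shared barcodes and the richest cells, and the finer endothelial clusters, were chosen after seeing the data. No paired analysis was possible because each group had 1 library, and no result comes from a test. Depth limits the mural and T and NK classes most, where 1764 and 3390 genes had enough UMIs.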

Other observations

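Classes outside the comparisons were small. Glial cells, the Schwann cells of the muscle's nerves, were 69 in old PBS against 47 in old rMETRNL, or 0.689% (95% interval 0.537% to 0.871%) and 0.411% (95% interval 0.302% to 0.546%) of classified cells, a ratio of 0.596 (0.402 to 0.876). B cells were 20 and 21. Lymphatic endothelial genes were higher in the endothelial class, with 3 of 5 at least 1.5-fold, and single cells held most of their UMIs, as for Ccl21a. Red cell transcripts were higher in dendritic cells and macrophages, at list medians of 4.56 and 2.001.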
